A study of Homo sapiens with 10 samples.

Results

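Cytosolic ribosomal proteins are the protein components of the ribosome that translates nuclear-encoded mRNA, and their genes were followed here across 3 groups of prostate epithelial cells. The members were the probe sets annotated to exactly 1 gene whose symbol starts with RPL or RPS and a number or is RPLP0, RPLP1, RPLP2 or RPSA, without S6 kinase genes and pseudogenes. The rule took 125 of the 54675 probe sets on the array, which name 64 of the 19775 genes that a probe set names alone. Of these, 3 name no ribosomal protein, namely RPS19BP1 and the noncoding RNAs RPL34-DT and RPL26L1-AS1, and were set apart. The remaining 122 probe sets belonged to 61 genes, 39 of the large subunit with 69 probe sets and 22 of the small subunit with 53 probe sets. A filter on low intensity kept 111 probe sets of 59 genes for testing, and the other 11 were not tested. One Y-linked probe set was counted and is not described. RPLP0, RPSA and RPS27A had no probe set naming them alone, and 15 further ribosomal protein genes, among them RPL5, RPL10 and RPL13A, were named only together with other genes and so were not members.

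The cells were RWPE-1, a non-tumorigenic line derived from the epithelium of the human prostate and kept in culture by immortalisation. All groups carried the biotin ligase BirA, delivered by MSCV retroviral vectors, and all were selected as stable clones and grown under normal conditions. The groups were cells expressing BirA with ERG (3 arrays), cells expressing BirA with ETV1 (4 arrays) and control cells expressing BirA alone (3 arrays). Affymetrix HG-U133 Plus 2.0 arrays were hybridised with total RNA from these cells. ERG and ETV1 are ETS transcription factors, which recognise DNA with a GGAA core and are the targets of recurrent fusions in tumours of the prostate. The labels do not say how many clones the arrays of a group came from, so p-values reflect only how far arrays of a group spread, which may be technical.

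The ribosome consists of a small subunit, which holds the mRNA and decodes it, and a large subunit, which forms peptide bonds and through whose tunnel the new chain leaves. Ribosomal proteins are made in matched amounts, and their mRNAs are among the most abundant of a growing cell. Most of these mRNAs begin with a C followed by a run of pyrimidines, the terminal oligopyrimidine (TOP) motif, through which mTORC1 signalling controls their translation. A few ribosomal proteins have paralogs, related genes with their own expression pattern, taken here as those marked by L in the symbol (RPL22L1, RPS27L). Intensities of different probe sets cannot be read as relative mRNA levels, because each probe set has its own efficiency, so only the same probe set was compared between groups. Fewer expressing cells and less RNA per cell cannot be told apart in such bulk samples.

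Arrays labelled ERG differed from the 7 others as a whole. Their Spearman correlation with control arrays over all probe sets was 0.766 to 0.811, and that of ETV1 with control arrays was 0.956 to 0.969. The 99th percentile of intensity was 7790 to 8057 on the arrays labelled ERG, 4375 to 5012 on ETV1 arrays and 4783 to 5742 on control arrays, while the median over all probe sets was 48.5 to 52.5, 70.9 to 75.5 and 71.3 to 73.4 in the same order. The 3 prime signal of the ACTB control probe sets divided by the 5 prime signal, a sign of RNA integrity, averaged 2.94 ± 0.171 on the arrays labelled ERG, 1.26 ± 0.0288 on ETV1 arrays and 1.38 ± 0.0243 on control arrays (SD, n = 3, 4 and 3). The same ratio for GAPDH was 1.005 ± 0.0518, 1.017 ± 0.0254 and 0.916 ± 0.0202 in this order, so that the arrays labelled ERG stood out in the ACTB ratio and not in the GAPDH ratio. The targeted gene was raised for ETV1, whose probe set 217053_x_at read 1320 ± 355 on ETV1 arrays and 88.1 ± 29.0 on control arrays. It did not settle the other label, since ERG probe set 211626_x_at averaged 36.5 on the arrays labelled ERG and 9.04 on control arrays, whereas 222079_at averaged 9.43 and 186. Every direction given below for the arrays labelled ERG carries that limit. Of 7 epithelial markers, 6 had a probe set naming them alone, and all 6 lay above the array median in each group. The summed intensity of 4 leukocyte markers was 105 to 152 on the arrays labelled ERG, 288 to 332 on ETV1 arrays and 266 to 348 on control arrays, and that of 4 fibroblast markers was 211 to 294, 1068 to 1120 and 920.4 to 1184. The 4 endothelial markers summed to 187 to 213, 1279 to 1418 and 1407 to 1569, and the 3 neuroendocrine markers to 109 to 125, 406 to 509.5 and 359 to 422. Most of each sum on ETV1 and control arrays came from a single probe set, of CD3E, COL1A1, PECAM1 and CHGA in this order. PECAM1 averaged 162.6 on the arrays labelled ERG, 1256 on ETV1 arrays and 1393 on control arrays. CD14 (29.69 against 18.9), COL1A2 (13.46 against 9.85) and SYP (9.883 against 6.753) averaged higher on the arrays labelled ERG than on control arrays. The other markers of these lists averaged lower. The sums therefore do not show that all markers of a list fell together. The part of these differences between arrays in the results below was not tested.

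The promoters were examined because the overexpressed proteins bind DNA. RefSeq windows of 300 bases (GRCh38.p14, 250 bases before the start and 50 from it on) were found for 52 of the 60 genes that are not Y-linked. The ETS core CGGAAG, searched on both strands, lay in the window of 35 of the 52 genes (67.3%), against 22.6% of the 27305 genes in the whole table. A start with C followed by at least 4 bases that are C or T was also found in 35 of them (67.3%), against 5.14% of all genes. Among the 46 genes that are not paralogs the shares were 69.6% for the ETS core and 73.9% for the pyrimidine start. Among the 6 matched paralogs, 3 held the core and 1, RPL22L1, had the pyrimidine start. The pyrimidine start lies at the first transcribed base and the core was counted anywhere in the window, so a gene can hold both. These are matches of letters, not evidence of binding.

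Promoters of 6 genes are shown because their genes carry the differences described below: the pairs RPL22 with RPL22L1 and RPS27 with RPS27L, RPS23, whose probe sets went opposite ways, and RPL36AL, lower on ETV1 arrays. Each runs 5′ to 3′ on the gene's strand from 70 bases before the annotated start to 30 bases from it on, 100 bases in all. Capitals mark an ETS core and, where the start met the rule, the pyrimidines from the start on.
RPL22 (chr1:6199566-6199665, minus strand): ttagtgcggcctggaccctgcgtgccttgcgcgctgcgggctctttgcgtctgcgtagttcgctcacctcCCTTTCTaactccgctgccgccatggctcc
RPL22L1 (chr3:170870166-170870265, minus strand): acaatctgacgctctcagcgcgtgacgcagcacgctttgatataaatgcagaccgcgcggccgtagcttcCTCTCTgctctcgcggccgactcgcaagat
RPS27 (chr1:153990692-153990791, plus strand): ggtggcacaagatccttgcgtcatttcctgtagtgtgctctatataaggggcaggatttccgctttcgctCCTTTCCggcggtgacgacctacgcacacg
RPS27L (chr15:63157448-63157547, minus strand): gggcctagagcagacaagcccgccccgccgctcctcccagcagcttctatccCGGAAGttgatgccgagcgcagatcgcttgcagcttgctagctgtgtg
RPS23 (chr5:82278325-82278424, minus strand): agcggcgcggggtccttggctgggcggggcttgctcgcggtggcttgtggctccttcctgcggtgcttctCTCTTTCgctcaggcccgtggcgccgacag
RPL36AL (chr14:49620597-49620696, minus strand): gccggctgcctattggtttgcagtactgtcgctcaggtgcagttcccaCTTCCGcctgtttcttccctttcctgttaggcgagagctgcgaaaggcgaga
The start of RPL22, RPL22L1, RPS27 and RPS23 met the rule for a pyrimidine start. That of RPL36AL lies inside a pyrimidine run that ends too soon after the start to meet it, and RPS27L starts at a purine. RPS27L and RPL36AL show the ETS core in the printed stretch, in RPL36AL on the opposite strand. RPS27 has its core elsewhere in its 300-base window.

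Most ribosomal protein probe sets were among the brightest on the array. In all, 57 of the 122 read above 10000 on all 10 arrays, and 67 of the 111 tested probe sets had a mean log2(intensity + 16) over 13, which corresponds to an intensity of 8176. The median intensity of these 67 bright probe sets was 19107, 19747 and 18771 on the arrays labelled ERG, 13587, 12699, 12972 and 13183 on ETV1 arrays, and 12279, 12556 and 13441 on control arrays. All 3 arrays labelled ERG lay above the other 7, and the ETV1 and control arrays overlapped. The 240 other probe sets of the same brightness moved in the same direction, with medians of 14929 to 15525 on the arrays labelled ERG, 10509 to 10770 on ETV1 arrays and 10462 to 11208 on control arrays. Here and below, other probe sets are all those outside the ribosomal protein probe sets defined above. They were not cleared of probe sets naming a ribosomal protein gene among several genes, of which 60 were tested at any brightness. They are therefore not a background free of ribosomal proteins. The share of all ribosomal protein probe sets, without the Y-linked one, in the summed intensity of the array was 4.93% to 5.24% on the arrays labelled ERG, 4.72% to 5.21% on ETV1 arrays and 4.05% to 5.31% on control arrays, and these ranges overlapped. Control replicate C was at the upper end, with 5.31%, against 4.05% and 4.41% for control replicates A and B.

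**Figure D1:**
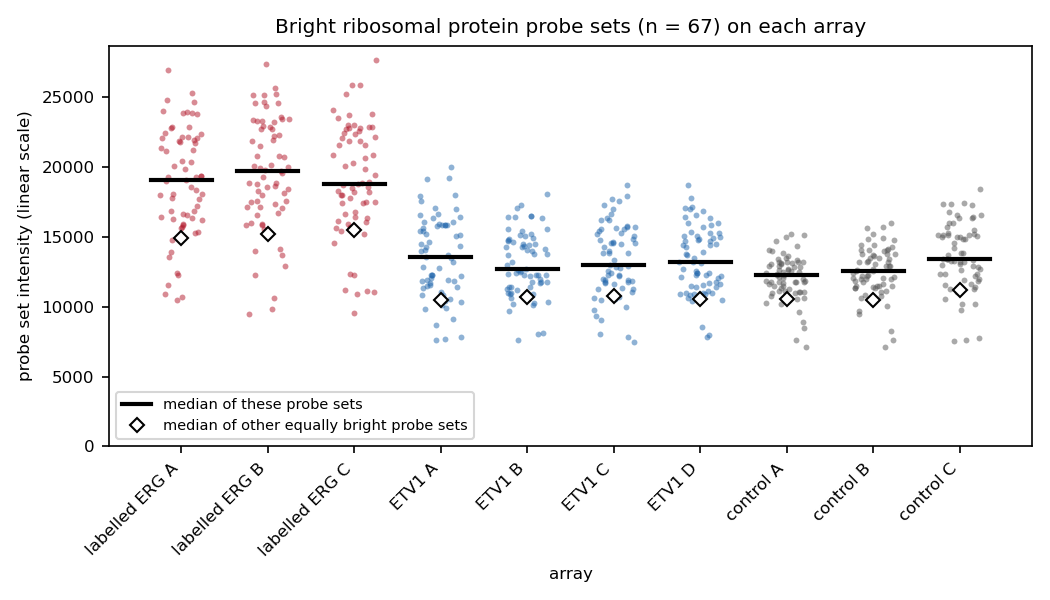
Intensity (linear scale) of the 67 bright ribosomal protein probe sets on each of the 10 arrays, one point per probe set, with their median (bar) and the median of the 240 other equally bright probe sets (diamond). Both medians are higher on the 3 arrays labelled ERG, at 18771 to 19747 and 14929 to 15525, than on any ETV1 or control array. The 240 were not cleared of probe sets naming a ribosomal protein gene among several genes.

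In the arrays labelled ERG, 82 of the 111 tested ribosomal protein probe sets were higher than in control arrays, 18 were lower and 11 did not pass (limma, Benjamini-Hochberg adjusted over all 31835 probe sets tested, threshold 0.05). Of all probe sets tested, 40.6% were higher and 37.6% were lower in this comparison. The median log2 fold change was 0.55 for the ribosomal protein probe sets and 0.08 for all probe sets tested. In the large subunit 47 of 64 probe sets were higher and 8 lower, with a median of 0.52, and in the small subunit 35 of 47 were higher and 10 lower, with a median of 0.59. Among the higher ones, RPL36 231658_x_at, RPL7 239493_at, RPLP2 217670_at and RPS15 1563014_at were above the array median on the arrays labelled ERG alone. Among the lower ones, RPS14 214245_at and RPS27 236621_at were above it on ETV1 and control arrays alone. These probe sets entered the test only through arrays on which they are high, so their calls are no independent support.

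The direction of this shift depended on how the arrays were scaled. After quantile normalization, which gives every array the same distribution of intensities, 21 ribosomal protein probe sets were higher and 24 lower, against 37.8% higher and 37.8% lower among all probe sets tested. Their median log2 fold change was then -0.03. Of the 82 probe sets higher as deposited, 20 stayed higher and 4 were lower after quantile normalization, and of the 18 lower ones 14 stayed lower. Centring each array on its median moved the median change of all tested probe sets to 0.49 and that of the ribosomal protein probe sets to 0.96. In that scaling 91 were higher and 10 lower, beside 53.3% higher and 28.7% lower among all probe sets tested.

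The rise as deposited was carried by the bright probe sets. Of the 67 bright ones, 63 were higher and 0 lower, with a median log2 fold change of 0.61. The limma test had an unadjusted p under 0.05 for the same number, 63. The 240 other probe sets of this brightness had 187 higher and 10 lower, with a median of 0.51. After quantile normalization the medians were 0.00 and -0.02, with 6 of the 67 ribosomal protein probe sets higher and 8 lower. The 30 dim members, with a mean log2(intensity + 16) of at most 10, split into 12 higher and 13 lower (40% and 43.3%), against 36.8% and 41.75% of other probe sets as dim. Among the 14 of intermediate brightness, 7 were higher and 5 lower (50% and 35.7%), against 63.6% and 11.6% of other probe sets of that brightness.

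**Figure D2:**
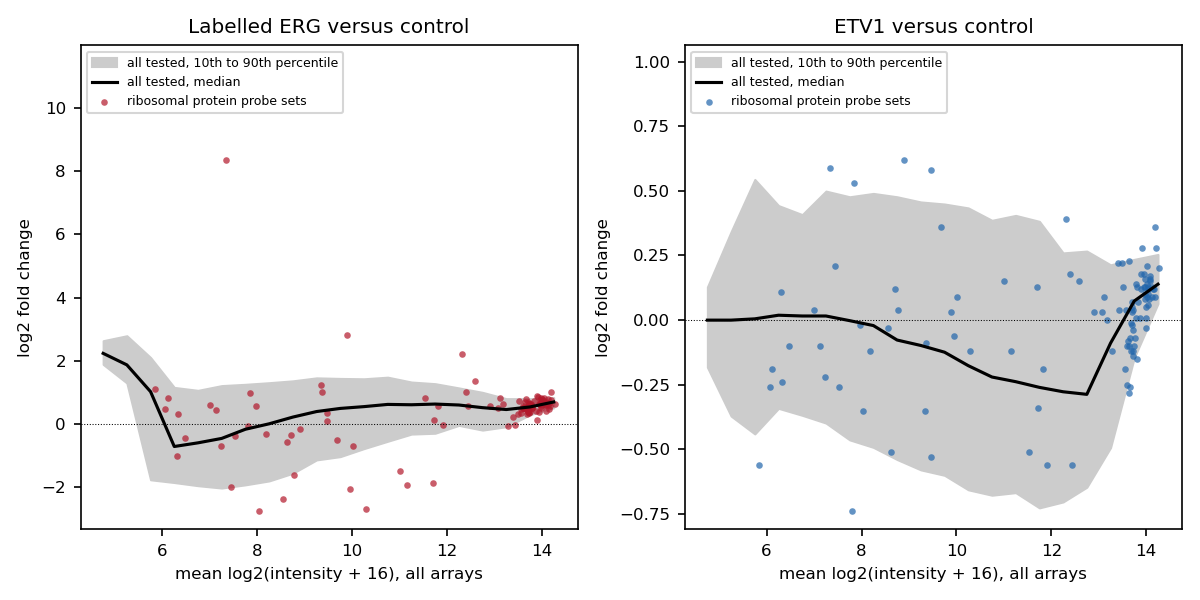
Log2 fold change of ribosomal protein probe sets (points, without the Y-linked one) against the mean log2(intensity + 16) over all arrays, for the arrays labelled ERG (left) and ETV1 arrays (right), each minus control. The line is the median and the band the 10th to 90th percentile of all tested probe sets in brightness steps of at least 20 probe sets. The median of the bright members is 0.61 on the left and 0.08 on the right. Line and band include the ribosomal protein probe sets themselves, so they are no separate background for the bright members.

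The genes with the brightest probe sets showed the pattern. RPS23, a protein of the decoding centre, read 26995, 27386 and 27689 on the arrays labelled ERG, 19195, 16420, 17602 and 17179 on ETV1 arrays, and 12023, 12939 and 16440 on control arrays at probe set 200926_at. The arrays labelled ERG did not overlap either other group. Its log2 fold change between the arrays labelled ERG and control arrays was 1.0 (SE 0.14, limma adjusted p = 1.4e-05), and it was 0.31 after quantile normalization (adjusted p = 0.019). RPS16, a small subunit protein, averaged 25496 ± 345 on the arrays labelled ERG, 18864 ± 812 on ETV1 arrays and 16517 ± 1697 on control arrays at 226131_s_at. It was higher by 0.63 than in control arrays as deposited, and the sign turned after quantile normalization, with -0.18. RPL37A, of the large subunit, averaged 25282 ± 544, 18038 ± 794 and 14990 ± 2243 at 201429_s_at, for the arrays labelled ERG, ETV1 arrays and control arrays. Its change of 0.76 between the arrays labelled ERG and control arrays became 0.04.

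RPS6, the substrate of S6 kinase downstream of mTORC1, read 22130, 21523 and 22775 on the arrays labelled ERG, 17909, 17093, 17717 and 17028 on ETV1 arrays, and 15245, 15651 and 17270 on control arrays at 201254_x_at. The arrays labelled ERG were the 3 highest, and ETV1 and control arrays overlapped. The log2 fold change against control was 0.47 (SE 0.12, limma adjusted p = 0.00323) as deposited and -0.25 (adjusted p = 0.0224) after quantile normalization. All 3 tested RPS6 probe sets were higher as deposited and lower after quantile normalization, and RPL18 probe set 200022_at did the same, with 0.32 and -0.22. These are the 4 probe sets that passed in opposite directions under the 2 scalings.

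Other proteins with well-known roles followed the bright probe sets. RPS19, mutated in Diamond-Blackfan anaemia, was higher by 0.58 at 213414_s_at on the arrays labelled ERG than on control arrays as deposited, with -0.15 after quantile normalization. RPS14, whose loss of 1 copy contributes to a myelodysplastic syndrome, was higher by 0.64 at 208645_s_at, with 0.03 after quantile normalization. RPL11, which with RPL5 binds the p53 regulator MDM2, was higher by 0.64, with 0.06 after it. RPLP1, of the stalk that recruits elongation factors, was higher by 0.61, with -0.11. RPL39, of the exit tunnel, was higher by 0.71 and RPS27 by 0.73 at 200741_s_at, with 0.03 and 0.04 after quantile normalization. RPS4X, of the small subunit, was higher by 0.38 and RPL22 probe set 208768_x_at by 0.51, with -0.14 and -0.02. None of these quantile values passed. Dimmer probe sets of RPS19, RPS27, RPS14 and RPL22 differed. That of RPS14, 214245_at, was lower and is given below. RPL22 probe sets 214042_s_at and 221726_at did not pass as deposited (-0.03 and 0.14). After quantile normalization both were lower, by -0.63 and -0.48 (limma adjusted p = 7.1e-05 and 0.00644). RPS19 probe set 242451_x_at was higher by 0.43 as deposited and by 0.68 after quantile normalization (limma adjusted p = 0.0144 and 4.3e-04). RPS27 probe set 236621_at was lower, with -1.01 as deposited, and did not pass after quantile normalization (-0.73).

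RPS3 and RPL3 did not follow the bright probe sets. RPS3, at the entry of the mRNA channel, read 15358, 15910 and 15935 on the arrays labelled ERG, 15784, 14914, 15680 and 15288 on ETV1 arrays, and 13207, 14045 and 15524 on control arrays. The arrays labelled ERG overlapped both other groups. RPL3, near the peptidyl transferase centre, averaged 10751 ± 1119, 11285 ± 599 and 10968 ± 91.0 for the arrays labelled ERG, ETV1 arrays and control arrays at 215963_x_at. Against control their log2 fold changes were 0.14 (limma adjusted p = 0.303) and -0.03 (adjusted p = 0.819) as deposited. After quantile normalization both were lower, RPS3 by -0.47 (adjusted p = 4.2e-04) and RPL3 by -0.58 (adjusted p = 8.5e-04), and after median centring both were higher, by 0.55 and 0.37. The other bright probe sets that did not pass as deposited were RPL18 222297_x_at (-0.08) and RPL29 200823_x_at (0.23). Both were lower after quantile normalization, by -0.64 (adjusted p = 1.4e-04) and -0.26 (adjusted p = 0.0188).

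Some probe sets were higher on the arrays labelled ERG than on control arrays under both scalings. RPL36, a large subunit protein, read 7867, 8022 and 7918 on the arrays labelled ERG at 231658_x_at, against 24.45, 16.43, 21.12 and 20.72 on ETV1 arrays and 6.39, 14.45 and 4.83 on control arrays. All ETV1 and control values lay below the median of their arrays, so the size of the change is set largely by the pseudocount. On the log2(intensity + 16) scale it was 8.36 over control, and it was 9.83 with a pseudocount of 1 and 6.79 with one of 64. This probe set entered the test only through the arrays labelled ERG, so no p-value is given for this rise. The other RPL36 probe set, 219762_s_at, averaged 15781 ± 82.0 on the arrays labelled ERG, 10080 ± 365 on ETV1 arrays and 11507 ± 283 on control arrays, and its change over control was 0.46. It became -0.08 after quantile normalization, so the changes at the 2 probe sets of this gene differ by far more than the spread between replicates. RPS9, a small subunit protein at the mRNA entry, read 14385, 15347 and 10830 on the arrays labelled ERG, 3664, 3784, 3389 and 4316 on ETV1 arrays, and 3119, 3383 and 2261 on control arrays at 217747_s_at. Its change over control was 2.21 (SE 0.18, adjusted p = 4.2e-08), and 1.72 after quantile normalization. The second RPS9 probe set, 214317_x_at, was higher by 0.81 and, after quantile normalization, by 0.39.

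RPL31, which lies near the tunnel exit, read 1485, 1427 and 972 on the arrays labelled ERG, 406, 433, 397 and 439.5 on ETV1 arrays, and 595, 542 and 478 on control arrays at 221593_s_at. The groups did not overlap, and the change of the arrays labelled ERG over control was 1.22 (SE 0.17, limma adjusted p = 7.6e-06), with 0.79 after quantile normalization. The bright RPL31 probe set 200963_x_at was higher by 0.81 as deposited and did not pass after quantile normalization (0.15). RPL31 probe set 200962_at passed under neither scaling (-0.07 and -0.03). RPLP2, the partner of RPLP1 in the stalk, read 107, 80.4 and 109.6 on the arrays labelled ERG, 18.4, 21.8, 23.0 and 17.9 on ETV1 arrays, and 40.1, 36.1 and 35.6 on control arrays at the dim probe set 217670_at. Its change over control was 1.10 (SE 0.14), and 1.43 after quantile normalization, with all ETV1 and control values below the median of their arrays. The other tested RPLP2 probe set, 200908_s_at, averaged 355 ± 168, 464 ± 76.8 and 427 ± 95.6 for the arrays labelled ERG, ETV1 arrays and control arrays, and did not pass (log2 fold change -0.35, adjusted p = 0.268). RPS24, a small subunit protein, was higher at both of its probe sets under both scalings, by 0.89 and 1.0 as deposited and by 0.31 and 0.61 after quantile normalization. Among other bright probe sets, RPS18 was higher by 0.86 and RPL34 by 0.73, with 0.29 and 0.28 after quantile normalization, both past the threshold.

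Of 9 tested paralog probe sets 7 were higher on the arrays labelled ERG than on control arrays, 1 was lower and 1 did not pass, with a median log2 fold change of 0.83, beside 40.6% higher and 37.6% lower among all probe sets tested. After quantile normalization 5 of the 9 were higher and 1 lower, with a median of 0.45, beside 37.8% and 37.8%. Other probe sets of log2 10 to 13 then had 32.4% each way. The 5 include RPL10L, which passed the intensity filter only with the arrays labelled ERG counted. RPL39L, a paralog of the tunnel protein RPL39 best known from testis, read 3894, 4517 and 2892 on the arrays labelled ERG, 566, 642, 565 and 350 on ETV1 arrays, and 602, 546 and 397 on control arrays. The arrays labelled ERG were all above the others, by a log2 fold change over control of 2.83 (SE 0.23, limma adjusted p = 3.6e-08), with 2.31 after quantile normalization. RPL22L1, the paralog of RPL22, read 10902, 13462 and 10118 on the arrays labelled ERG, 4847, 5220, 4893 and 4741 on ETV1 arrays, and 4928, 4616 and 3809 on control arrays. It was 2.58 times control by the ratio of means, a log2 fold change of 1.36 (SE 0.15, adjusted p = 9.0e-07), and 0.84 after quantile normalization.

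RPS27L, a paralog of RPS27 and a target of p53, had 3 tested probe sets. At 218007_s_at it read 8590, 9907 and 6858 on the arrays labelled ERG, 4579, 5136, 4413 and 4474 on ETV1 arrays, and 4860, 4054 and 3509 on control arrays, a change over control of 1.02 (0.45 after quantile normalization). At 238935_at it was higher by 0.99, whereas at 222487_s_at it was lower, with 719, 846 and 557 on the arrays labelled ERG and 1327, 1198 and 939 on control arrays (log2 fold change -0.70, limma adjusted p = 0.00277). RPL26L1, RPL36AL and RPL7L1 averaged 5153 ± 608, 8572 ± 918 and 5045 ± 530.5 on the arrays labelled ERG, and 2898 ± 453, 5742 ± 539.9 and 3387 ± 325 on control arrays. They were higher by 0.83, 0.58 and 0.57 as deposited, and their quantile values of 0.19, 0.01 and -0.05 did not pass. RPL10L, a paralog best known from testis, averaged 84.5 ± 12.0, 53.8 ± 17.7 and 65.8 ± 19.9 for the arrays labelled ERG, ETV1 arrays and control arrays. It did not pass as deposited (0.32, adjusted p = 0.173) and was called higher after quantile normalization (0.71). This probe set passed the intensity filter only with the arrays labelled ERG counted. Its call is therefore no independent support, and no p-value is given for this rise. RPL3L, the striated muscle paralog of RPL3, was too dim to be tested, at 1.92 to 8.28 on the arrays labelled ERG, 1.02 to 6.75 on ETV1 arrays and 5.38 to 37.0 on control arrays.

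**Figure D3:**
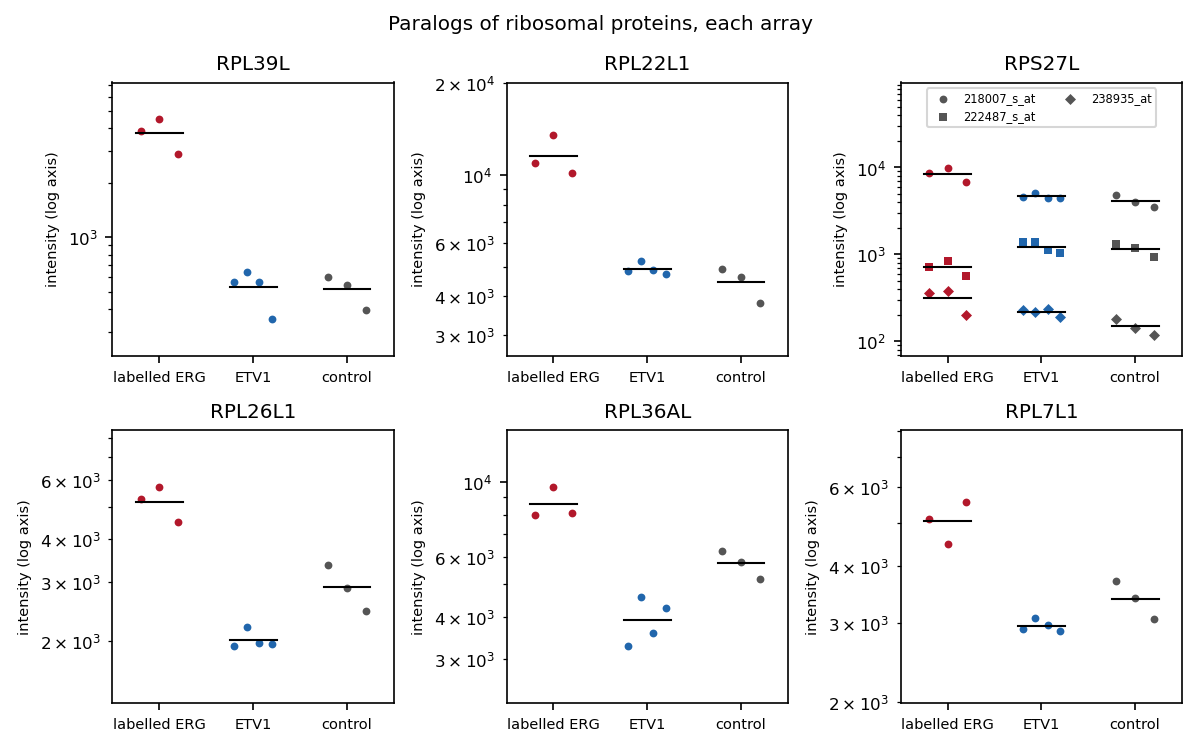
Intensity (log axis) of 6 paralogs of ribosomal proteins on each array labelled ERG, ETV1 array and control array, one point per array and probe set, with the group mean as a line. RPL39L and RPL22L1 are highest on the arrays labelled ERG, RPL26L1 is lowest on the ETV1 arrays, and the 3 probe sets of RPS27L do not go the same way.

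The probe sets of 1 gene often went opposite ways on the arrays labelled ERG. Among 32 ribosomal protein genes with at least 2 tested probe sets, 14 had all of them higher than in control arrays, 13 had at least 1 higher and 1 lower, and 0 had all of them lower. The share with opposite calls was 40.6%, and it was 37.4% of 6663 such genes on the whole array. In all 13 genes the brightest probe set was higher. Their 16 lower probe sets comprised 11 designed for a single transcript, 3 of the x type, which can match several sequences, and 2 of the s type, which can match several transcripts. After quantile normalization 2 of the 32 genes had opposite calls, RPS23 and RPS27L, against 34.1% of all such genes. In the comparison of ETV1 with control arrays 0 of the 32 genes had opposite calls, against 0.585% of all such genes, and 25 had no call.

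The largest falls were of probe sets dimmer than their gene's brightest. RPL18, a large subunit protein, read 57.5, 55.5 and 63.7 on the arrays labelled ERG, 322, 442, 345 and 446 on ETV1 arrays, and 436, 446 and 627 on control arrays at 214335_at. The arrays labelled ERG lay below all others, with a log2 fold change against control of -2.77 (SE 0.17, limma adjusted p = 2.9e-09), and -2.56 after quantile normalization. RPS10, another gene of Diamond-Blackfan anaemia, read 311, 365 and 324 on the arrays labelled ERG, 2180, 2115, 1779 and 2269 on ETV1 arrays, and 1857, 2328 and 2643 on control arrays at 214001_x_at. It fell by 2.70, while its 3 other probe sets were higher by 0.59 to 0.65 as deposited. RPS23 averaged 103 ± 19.0 on the arrays labelled ERG, 593 ± 33.6 on ETV1 arrays and 612 ± 120 on control arrays at 227722_at. It fell by 2.39 there and was higher by 1.0 at the bright probe set given above.

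Further falls followed this pattern. RPS14 averaged 46.5 ± 1.24 on the arrays labelled ERG, 272 ± 38.0 on ETV1 arrays and 230.5 ± 9.95 on control arrays at 214245_at. It fell by 1.98 there, with the 3 arrays labelled ERG below their medians, so this probe set entered the test only through the other arrays. RPL38, which in mice is needed for translation of Hox mRNAs, read 858, 921 and 959 on the arrays labelled ERG, 3730, 3040, 2964 and 3236 on ETV1 arrays, and 3696, 4086 and 2837 on control arrays at 202028_s_at. It fell by 1.92 there and by 1.49 at 221943_x_at, and was higher by 0.39 at 202029_x_at, where the quantile value was -0.19. RPL37A averaged 1298 ± 261 on the arrays labelled ERG, 5241 ± 919 on ETV1 arrays and 4782 ± 844 on control arrays at 214041_x_at, a log2 fold change of -1.87 against control. RPL27A was the exception in having 1 probe set, with 265, 377 and 434 on the arrays labelled ERG, 1941, 1208, 1303 and 1541 on ETV1 arrays, and 1580, 1639 and 1386 on control arrays. It fell by 2.07 (SE 0.20, adjusted p = 2.1e-07), and the falls named for RPL38, RPL37A and RPL27A were at least as large after quantile normalization, with -2.37, -2.37 and -2.28.

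**Figure D4:**
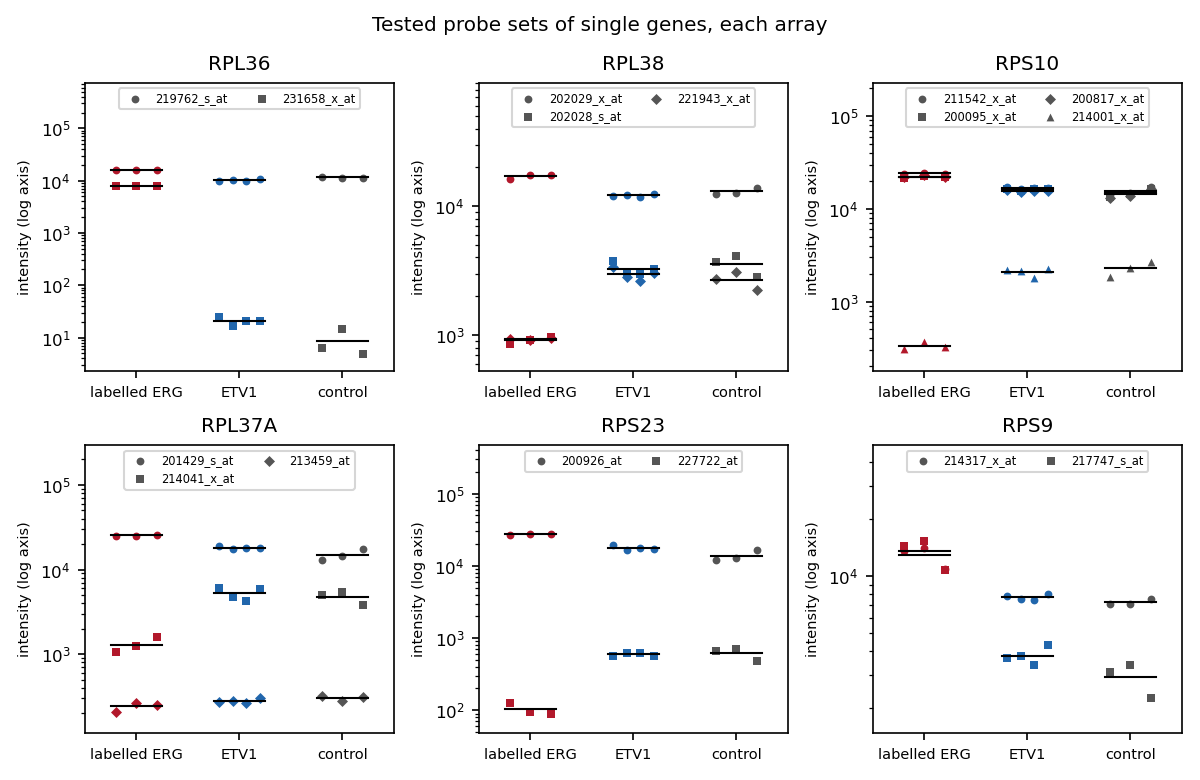
Intensity (log axis) of every tested probe set of 6 ribosomal protein genes on each array labelled ERG, ETV1 array and control array, with the group mean as a line and one symbol per probe set. In RPL38, RPS10, RPL37A and RPS23 a bright probe set is highest and a dimmer one lowest on the arrays labelled ERG, and in RPL36 and RPS9 the dimmer probe set is the one that differs most.

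ETV1 arrays differed little from control arrays in these genes. Of the 111 tested probe sets 4 were higher, 7 were lower and 100 did not pass, while 9.2% of all probe sets tested were higher and 11.3% lower. The median log2 fold change was 0.04, against -0.03 over all probe sets tested. None of the 67 bright ribosomal protein probe sets passed in limma, where 6 had an unadjusted p under 0.05. Their median was 0.08, against 0.02 for the 240 other bright probe sets, of which 7 were higher and 27 lower. After quantile normalization 10 ribosomal protein probe sets were higher and 9 lower, against 13% and 14.9% of all probe sets tested, and they included all 4 and all 7 of the calls as deposited. In limma with a variance trend and robust estimation, 11 were higher as deposited. Of the 11 calls, RPL36 231658_x_at (higher) and RPLP2 217670_at (lower) had entered the test only through the arrays labelled ERG and lay below the array median on all ETV1 and control arrays. With the filter applied to ETV1 and control arrays alone, an alternative chosen after seeing the data, 3 of 106 were higher and 6 lower, beside 10.03% and 12.67% of the 28251 probe sets that passed it.

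On ETV1 arrays, 7 probe sets of 7 genes were lower than on control arrays. RPL31 read 134, 142, 144 and 189 on ETV1 arrays against 268, 278 and 242 on control arrays at 200962_at, and the groups did not overlap. Its log2 fold change was -0.74 (SE 0.14, limma adjusted p = 0.00182). The bright RPL31 probe set 200963_x_at did not pass, with 0.10 (adjusted p = 0.615). RPL22, an RNA-binding large subunit protein, read 2904, 3365, 3070 and 2955 on ETV1 arrays and 5082, 4709 and 3898 on control arrays at 214042_s_at, a change of -0.56 (SE 0.13, adjusted p = 0.00698). Its 4 other probe sets did not pass, with changes of -0.34 to -0.08. The RPLP2 call, at 217670_at, compares values below the array medians, with a log2 fold change of -0.56, or -0.27 with a pseudocount of 64 (adjusted p = 0.0626).

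The paralogs RPL36AL and RPL26L1 were also lower on ETV1 arrays. RPL36AL read 3274, 4554, 3588 and 4252 on ETV1 arrays and 6252, 5797 and 5176 on control arrays (log2 fold change -0.56, SE 0.15, limma adjusted p = 0.0140). RPL26L1 read 1934, 2207, 1979 and 1965 on ETV1 arrays and 3361, 2878 and 2456 on control arrays (-0.51, SE 0.14, adjusted p = 0.0191). Neither gene's groups overlapped, but both calls were lost when control replicate A was left out (-0.49 and -0.39), control replicate B (-0.55 and -0.51) or ETV1 replicate A (-0.48 and -0.49), and that of RPL26L1 also for ETV1 replicate C (-0.50). RPS15A, a small subunit protein, read 382, 363, 354 and 286 on ETV1 arrays and 555, 511 and 434 on control arrays at 235309_at (-0.51, adjusted p = 0.0164), and was not called without control replicate A (-0.44) or B (-0.49). RPS21, of the small subunit, read 613, 565, 592 and 428 on ETV1 arrays and 969, 802 and 643 on control arrays at 214097_at (-0.53, adjusted p = 0.0399). The call was lost on leaving out control replicate A (-0.39) or B (-0.52), or ETV1 replicate B (-0.55), C (-0.57) or D (-0.42).

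The higher calls were at dim probe sets. RPL37, of the large subunit, read 503, 740.4, 544 and 740.4 on ETV1 arrays, and 434, 392 and 376 on control arrays at 224766_at. The groups did not overlap, and the log2 fold change was 0.62 (SE 0.16, limma adjusted p = 0.0131), which was lost without control replicate B (0.60, adjusted p = 0.0514). At 224763_at it read 844, 796, 818 and 808 on ETV1 arrays and 635, 565 and 444 on control arrays, a change of 0.58 (adjusted p = 0.00740). RPL37 probe set 224767_at did not pass (0.36, adjusted p = 0.0649), nor did the bright 200092_s_at (0.08). The RPL36 call, at 231658_x_at, compares intensities of at most 24.45, below the array medians, with a log2 fold change of 0.59, or 0.22 with a pseudocount of 64 (adjusted p = 0.0974). The other higher call was the Y-linked probe set, which is not described.

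**Figure D5:**
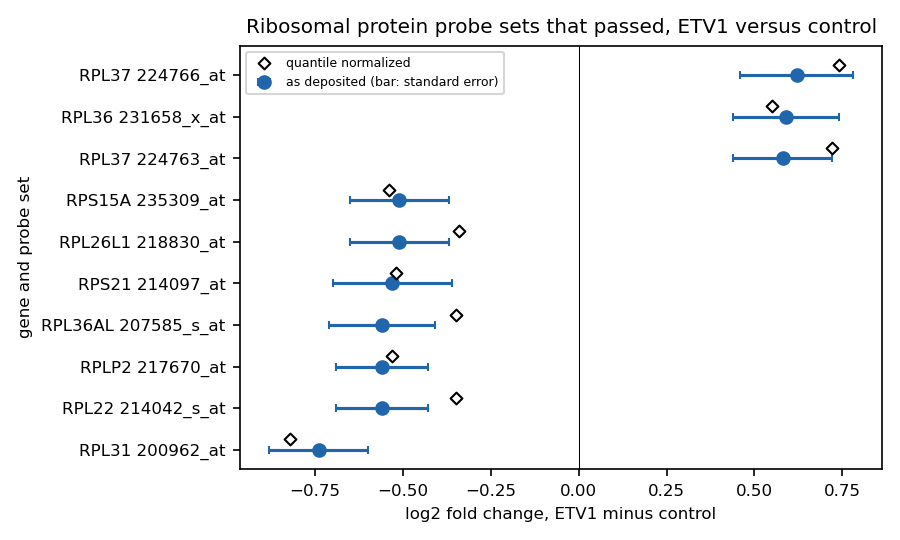
Log2 fold change, ETV1 minus control, of the 10 ribosomal protein probe sets past the threshold other than the Y-linked one (circles, bars are standard errors) and the same after quantile normalization (diamonds). Changes run from -0.74 for RPL31 to 0.62 for RPL37, and each keeps its sign. The values of RPL36 and RPLP2 lay below the array medians in both groups.

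Brightest-probe-set values of genes with and without the promoter letters were close. Over the 51 promoter-matched genes with a tested probe set, the median log2 fold change of ETV1 arrays over control arrays was 0.10 in 34 genes with an ETS core (0 higher, 1 lower) and 0.05 in 17 without it (0 higher, 1 lower). For the arrays labelled ERG over control arrays it was 0.62 in genes with the core and 0.63 without it, and after quantile normalization -0.02 and 0.06. By the pyrimidine start, the same medians as deposited were 0.64 in the 34 genes with it and 0.54 in the 17 without it on the arrays labelled ERG, and 0.12 and 0.01 on ETV1 arrays.

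Between the arrays labelled ERG and ETV1 arrays, 83 of the 111 probe sets were higher on the arrays labelled ERG, 16 were lower and 12 did not pass, beside 43% higher and 38.8% lower among all probe sets tested. The median log2 fold change was 0.53, against 0.10 for all probe sets tested. After quantile normalization 23 were higher and 28 lower, beside 40.1% and 39.6% of all probe sets tested, with a median of 0.01. Its arrays are those of the comparisons against control, so its values are not independent of theirs. RPL26L1 and RPL36AL had passed in opposite directions against control as deposited. RPL26L1 was higher by 1.34 (SE 0.14, limma adjusted p = 4.3e-07) on the arrays labelled ERG than on ETV1 arrays and RPL36AL by 1.13, and after quantile normalization by 0.53 and 0.36. RPL39L, RPS9 at 217747_s_at, RPLP2 at 217670_at and RPL31 at 221593_s_at were higher by 2.80, 1.82, 1.66 and 1.57, and by 2.22, 1.15, 1.96 and 1.13 after quantile normalization. RPS10, RPL18, RPS23, RPS14, RPL27A and RPL37A were lower by -2.59, -2.42, -2.37, -2.19, -2.02 and -2.00 at the probe sets named for their falls. All 9 paralog probe sets passed, 8 of them higher and 1 lower. Other probe sets of log2 10 to 13, the brightness of most paralogs, were 70.7% higher and 11.8% lower. Among the 8, RPL10L passed the intensity filter only with the arrays labelled ERG counted.

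The machinery around the ribosome was read from 3 lists, each gene at the brightest tested probe set naming it alone. The lists were not matched for brightness to the other probe sets of log2 10 to 13 given beside them. Some of their genes, among them EIF3C and TAF1B, were dimmer. Translation factors and other TOP mRNAs had 14 genes higher and 4 lower of 27 tested on the arrays labelled ERG relative to control arrays, with a median log2 fold change of 0.38, beside 40.6% higher and 37.6% lower among all probe sets tested. After quantile normalization 1 was higher and 13 lower, with a median of -0.26, beside 37.8% and 37.8%. Among other probe sets of log2 10 to 13, 63.6% were higher and 11.6% lower as deposited, and 32.4% each way after quantile normalization. EIF4B, an initiation factor that stimulates the helicase eIF4A, was 2510 ± 187 on the arrays labelled ERG and 6947 ± 619 on control arrays, a log2 fold change of -1.46 (SE 0.14, limma adjusted p = 1.6e-07). EIF4G1, the scaffold of cap-dependent initiation, fell by 1.25 and EIF3C, of the initiation complex eIF3, by 1.13. On ETV1 arrays 0 of the 27 genes were higher and 7 lower than on control arrays, with a median of -0.26, beside 9.2% and 11.3% of all probe sets tested and 7.92% and 26.9% of other probe sets of log2 10 to 13. EIF3A, a large subunit of eIF3, read 3073 ± 144 on ETV1 arrays and 5034 ± 755 on control arrays (-0.70, adjusted p = 0.00435). EIF4G1 fell by 0.66 and EEF1D, of the elongation factor that reloads eEF1A, by 0.59.

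Ribosome biogenesis genes had 32 higher and 3 lower of 45 tested on the arrays labelled ERG relative to control arrays, with a median log2 fold change of 0.69, and 19 higher and 9 lower with a median of 0.23 after quantile normalization. All probe sets tested had 40.6% higher and 37.6% lower as deposited, and 37.8% each way after quantile normalization. Other probe sets of log2 10 to 13 had 63.6% and 11.6% as deposited, and 32.4% each way after it. RPF2, needed for assembly of the 5S particle, averaged 2867 ± 613 on the arrays labelled ERG and 542 ± 87.0 on control arrays (2.36, SE 0.17, limma adjusted p = 1.4e-08). GNL2, a GTPase of large subunit maturation, was higher by 2.23, whereas PES1, of the PeBoW complex, fell by 1.44. On ETV1 arrays 1 of the 45 was higher and 11 lower than on control arrays, with a median of -0.21, beside 9.2% and 11.3% of all probe sets tested and 7.92% and 26.9% of other probe sets of log2 10 to 13. DDX10, a nucleolar helicase, was the higher one, with 1475 ± 381 on ETV1 arrays and 520.5 ± 28.8 on control arrays (1.43, adjusted p = 1.6e-04). EMG1, a methyltransferase of the small subunit rRNA, fell by 1.19 and NOLC1, a nucleolar phosphoprotein, by 1.03.

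Of 20 genes of RNA polymerase I and its factors, which transcribe rRNA, 14 were higher and 2 lower on the arrays labelled ERG relative to control arrays as deposited, and the counts were 14 and 2 after quantile normalization too. The medians were 0.90 and 0.31, and the shares of all probe sets tested were 40.6% higher and 37.6% lower as deposited and 37.8% each way after quantile normalization. Those of other probe sets of log2 10 to 13 were 63.6% and 11.6% as deposited, and 32.4% each way after it. Other probe sets of at most log2 10, the brightness of TAF1B, had 36.8% and 41.75% as deposited. After quantile normalization these had 38.8% each way. TAF1B, of the promoter selectivity factor SL1, averaged 486 ± 40.9 on the arrays labelled ERG and 130.1 ± 4.94 on control arrays (1.78, limma adjusted p = 3.0e-08), POLR1F was higher by 1.62 and TAF1D by 1.41. On ETV1 arrays 0 of the 20 were higher and 6 lower than on control arrays, with a median of -0.12, beside 9.2% and 11.3% of all probe sets tested. Of other probe sets of log2 10 to 13, 7.92% were higher and 26.9% lower in this comparison. POLR1D, a subunit shared with polymerase III, averaged 2400 ± 204 on ETV1 arrays and 4000 ± 594 on control arrays (-0.73, adjusted p = 0.00179). Relative to ETV1 arrays, the arrays labelled ERG had 19, 37 and 17 genes of the 3 lists higher and 4, 3 and 1 lower as deposited, beside 43% and 38.8% of all probe sets tested. After quantile normalization the counts were 3, 26 and 15 higher and 13, 6 and 3 lower, beside 40.1% and 39.6%. Other probe sets of log2 10 to 13 had 70.7% higher and 11.8% lower as deposited, and 39.7% and 33.6% after quantile normalization.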

How the data were processed

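The deposited file holds one linear intensity per probe set and array. How the authors summarised probes and normalized: not given in the sources used here. Per the labels' protocols, total RNA was extracted with Trizol and biotin-labelled cRNA prepared by Affymetrix's standard protocol. The deposited intensities were used without further scaling. Testing required an intensity over the array median on 3 or more arrays and left 31835 non-control probe sets. Tests ran on log2(intensity + 16), which understates changes of dim probe sets, with a two-sided limma test (lmFit, eBayes) fitted to all 3 groups together, 7 residual degrees of freedom, Benjamini-Hochberg over all tested probe sets, threshold 0.05. The number of arrays limits the precision.

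The members and lists were chosen with earlier results of these data known. Probe sets were named by the platform annotation, in which 41091 name 1 gene, 1801 several and 11721 none, beside 62 controls. Of the 41091, 54 were not matched to RefSeq. The named members are, per comparison, the 6 largest rises and 6 largest falls past the threshold without overlap between groups, one probe set per gene, the 5 brightest and 5 dimmest genes, and a fixed set of well-known proteins and paralogs. Members outside this rule (such as RPS24, RPS18, RPL34 and further probe sets of a named gene) were named after their values were seen. From each related list up to 3 passing genes per comparison are named. Replicate letters in the labels did not pair the arrays, since correlations of the deviations of arrays of the same letter were -0.10 to 0.08. The number of identical array pairs was 0. The alternatives tried were a replicate block, pseudocounts of 1 and of 64, quantile normalization, centring on the median, dropping the filter, single-transcript probe sets, 1 probe set per gene (the brightest), limma with trend and robust, fits of the compared groups alone, omission of each array and, chosen after seeing the data, the filter on the compared groups alone. The fit was tested on simulated data. Software was R 4.3.3, limma 3.58.1, data.table version 1.17.8, Python 3.11.15, pandas 2.3.3, numpy 2.4.6 and matplotlib 3.10.9.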

Additional observations from a re-analysis of the deposited data

How the results depend on the processing

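Scaling decided most of the results for the arrays labelled ERG, and the cause was not tested. After quantile normalization, 21 ribosomal protein probe sets were higher than in control arrays with a median of -0.03, and 23 were higher and 28 lower than in ETV1 arrays with a median of 0.01. For ETV1 versus control it gave 10 higher and a median of 0. Median centring gave 10 lower in the arrays labelled ERG than in control arrays and medians of 0.96 in both of their comparisons. Signs turned after quantile normalization against control for RPS16 (-0.18), RPS19 (-0.15), RPS6 (-0.25), RPLP1 (-0.11), RPS3 (-0.47), RPS4X (-0.14), RPL22 208768_x_at (-0.02) and RPL7L1 (-0.05). Against ETV1 arrays they turned for RPL22 214042_s_at (-0.28), RPS16 (-0.22), RPL37A 201429_s_at (-0.12), RPS19 (-0.10), RPS6 (-0.23), RPLP1 (-0.07), RPL39 (0), RPS14 208645_s_at (-0.07), RPS3 (-0.47), RPS4X (-0.17) and RPL7L1 (-0.04). Median centring turned RPL31 200962_at (0.34), RPL22 214042_s_at (0.38) and RPL3 (0.37) against control, and RPS15A 235309_at (0.36) and RPL3 (0.36) against ETV1 arrays.

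Fewer probe sets are tested when only single-transcript ones enter: 21 higher and a median of 0.36 (labelled ERG versus control), a median of -0.02 (ETV1 versus control), and 24 higher, 10 lower and a median of 0.46 (labelled ERG versus ETV1). With the brightest probe set per gene these were 53 higher, 2 lower and 0.63, then 1 higher, 2 lower and 0.08, then 53 higher, 2 lower and 0.58. Limma with trend and robust gave 11 higher for ETV1 versus control. No filter and a pseudocount of 64 each gave a median of 0.52 for labelled ERG versus control. Leaving out single arrays gave medians of 0.50 to 0.56 there, and for ETV1 versus control 3 to 7 higher, with 7 without control replicate C, and 3 to 7 lower, with 3 without control replicate A and 3 without B. With the replicate block, RPL37 224766_at (0.54), RPS21 (-0.42) and RPS15A (-0.43) no longer passed for ETV1 versus control, nor RPS6 (0.33) and RPS4X (0.31) for labelled ERG versus ETV1, and the counts were 79 higher and 17 lower for labelled ERG versus control. The letters do not pair the arrays. The filter on the compared groups alone, chosen after seeing the data, gave 82 higher and 17 lower for labelled ERG versus control and 3 higher and 6 lower for ETV1 versus control. The 189 repeats of the counts and medians of the 3 comparisons kept within 1.5 times, or within the replicate spread, in 157 cases.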

Other observations

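Ribosomal protein genes that share their annotation with other genes, often small nucleolar RNAs hosted in their introns, were measured by 65 further probe sets, of which 60 were tested. On the arrays labelled ERG 45 of these were higher and 6 lower than on control arrays, with a median log2 fold change of 0.54, beside 40.6% and 37.6% of all probe sets tested. After quantile normalization 10 were higher and 15 lower, with a median of -0.08, beside 37.8% each way. On ETV1 arrays 1 was higher and 5 lower than on control arrays, with a median of 0.08, beside 9.2% and 11.3%. Between the arrays labelled ERG and ETV1 arrays 47 were higher and 5 lower, with a median of 0.47, beside 43% and 38.8%. Of the 3 probe sets taken in by the symbol rule that name no ribosomal protein, RPS19BP1, which encodes a protein that binds RPS19, averaged 957 ± 385 on the arrays labelled ERG, 656 ± 33.7 on ETV1 arrays and 548 ± 62.1 on control arrays. RPL26L1-AS1, a noncoding RNA, averaged 53.3 ± 12.7, 65.5 ± 8.27 and 78.0 ± 1.99 in the same order. Against control the log2 fold changes of the arrays labelled ERG were 0.70 and -0.46 as deposited (limma adjusted p = 0.0138 and 0.0151), and neither passed after quantile normalization.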
